A study of Homo sapiens and Mus musculus with 19 samples.

Results

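HCC827 and PC9 are human lung adenocarcinoma lines, and the comparison described here sets the 3 HCC827 arrays against the 3 PC9 arrays. These are 6 of the 15 human arrays and of the 19 arrays in the series, chosen by the cell line named in the labels. Both lines are known to carry activating deletions in the kinase domain of EGFR, which is background knowledge and not part of the labels. Each line was grown in RPMI with serum and transduced with one of 3 retroviruses. MiG is the control retrovirus, which carries GFP. IkB_SR is MiG with the super-repressor mutant of IkB alpha, which holds NF-kB in the cytoplasm, and IKKb is MiG with an activated mutant of IKK beta, which switches NF-kB on. Every array, the controls included, comes from cells that carry a retrovirus and were sorted for GFP. There is 1 array for each line and vector, so the 3 arrays of a line are 1 line under 3 vectors. The p-values below therefore weigh the difference between the lines against its spread over arrays and vectors, not against a spread between independent cultures. RNA levels were read on single-colour Affymetrix arrays and are given as the deposited signal, in the order MiG, IkB_SR and IKKb.

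EGFR is a receptor tyrosine kinase that signals through the RAS to ERK and PI3K to AKT cascades, and lung cancers with a mutant EGFR depend on that signal. Cells of one driver can still differ in other programmes. Interferon signalling, which runs through JAK kinases and STAT and IRF factors, switches on antiviral and antigen presentation genes. The NRF2 factor, held down by KEAP1, switches on glutathione, thioredoxin and aldo-keto reductase genes that detoxify reactive compounds.

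The signal distributions of the 6 arrays were close to each other, with a median signal of 51.3 to 57.0 in HCC827 and 54.9 to 59.8 in PC9. The actin 3' to 5' ratio, a sign of RNA integrity, ran from 1.17 to 1.26 and from 1.19 to 1.30. All 8 epithelial markers measured, among them the keratins and CDH1, lay above the 40th percentile of their array on every array of both lines. Of 8 alveolar and club cell markers, SFTPB, NAPSA and ABCA3 lay above it on all arrays of both lines, with AGER in HCC827 and SFTPC in PC9, while NKX2-1 and SFTPD were dimmer than it throughout both lines. Their summed signal reached 581 in HCC827 and 619.7 in PC9. The summed signal of 14 leukocyte markers was 413 to 547 in HCC827 and 464 to 1031 in PC9, against 108141 to 134617 and 101625 to 123809 for the epithelial markers. NFKBIA, which encodes IkB alpha and checks the IkB_SR label, had a signal of 2058, 14578 and 6877 in HCC827 and of 1185, 7167 and 1384 in PC9, highest with IkB_SR in both lines. The brightest probe set of IKBKB, the gene of IKK beta, gave 404, 449 and 415 in HCC827 and 381, 326 and 348 in PC9, and the IKKb array was not the highest of either line.

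Of 14382 genes tested, 7836 (54.5%) passed an adjusted p of 0.05 in limma's moderated test with the vector as a block, 3870 (26.9%) higher in HCC827 and 3966 (27.6%) higher in PC9. The median log2 difference, HCC827 minus PC9, was -0.03, and the 2 groups of 3 arrays did not overlap for 8946 genes (62.2%). Since most genes passed, the text turns on a stricter class, called line genes. A line gene passed the test and was at least 2-fold apart, in the same direction, under each of the 3 vectors. This class held 2276 genes (15.8%), with 1239 (8.61%) higher in HCC827 and 1037 (7.21%) higher in PC9. Of these, 444 and 289 were at least 4-fold apart under every vector, 94 and 51 at least 16-fold, and 17 and 10 at least 64-fold. In 336 of the line genes higher in HCC827, every PC9 array lay below the array's 40th percentile, and in 161 of those higher in PC9 every HCC827 array did. For such genes the fold is a lower bound, computed with the percentile in place of the dim signal and written as "at least". Just inside the class lay USP35, HSF1 and SGSM2. Just outside lay TRIM44, THBS1 and UBL3.

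**Figure D1:**
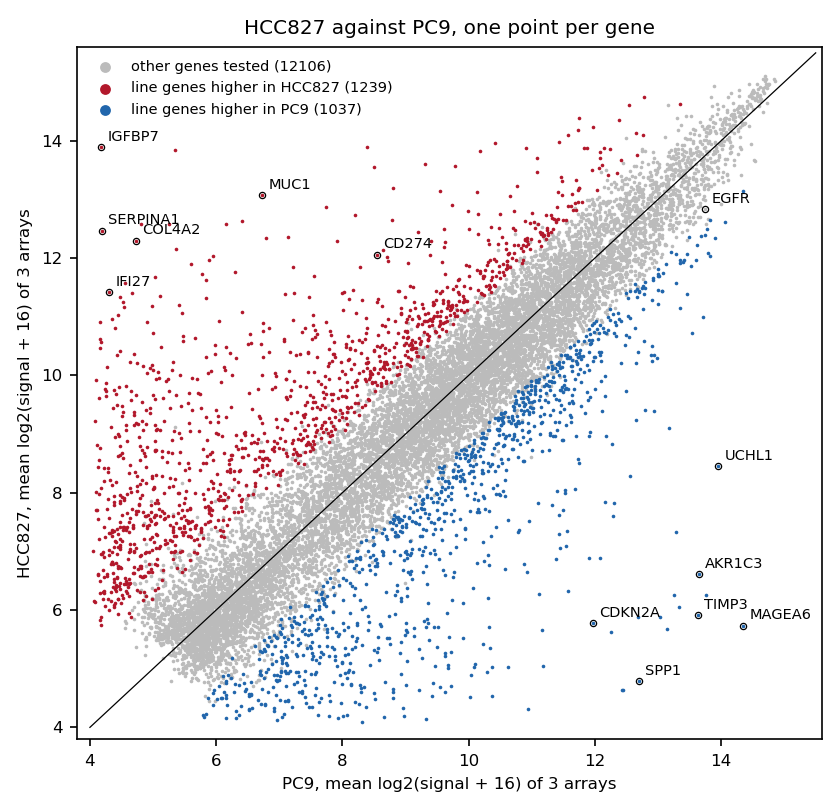
Mean log2(signal + 16) of the 3 PC9 arrays (horizontal) against the 3 HCC827 arrays (vertical), 1 point per gene tested, with the diagonal as a line. The 1239 line genes higher in HCC827 are red, the 1037 higher in PC9 blue and the other 12106 grey; EGFR lies near the diagonal, while IGFBP7 and MAGEA6 lie far from it.

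The difference between the lines was mostly the same under the 3 vectors. Of the genes tested, 10479 (72.9%) differed in the same direction under all vectors. Across genes, the differences under MiG and IkB_SR had a Pearson r of 0.889, those under MiG and IKKb 0.883, and those under IkB_SR and IKKb 0.857, as a description in which genes are not independent replicates. At least 2-fold differences were seen under no vector in 8950 genes, under 1 vector in 2018, under 2 in 1116 and under 3 in 2298. Only 89 genes were 2-fold apart in opposite directions under 2 vectors, and 37 of those lay below the 40th percentile on at least 3 of the 6 arrays. LAMP3, a lysosomal membrane protein induced by interferon, was the brightest of those named: its signal was 922, 118 and 1663 in HCC827 and 596, 348 and 431 in PC9, so HCC827 was higher with MiG and IKKb and lower with IkB_SR. The others named by the rule (ALX4, ATP1B2, CYP2B7P, CYP3A4, FGF19, IL2RG, LOC105376292, PGC and ZNF649) were above the percentile on some arrays and below it on others. With 1 array per line and vector, whether a difference changes with the vector could not be tested.

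Counted in the same way for the 10 pairs of human lines, HCC827 and PC9 ranked 9 of 10 in the share of genes at least 2-fold apart under all vectors, at 15.8%. HCC827 and H358 were the closest pair at 14.6%, and HCC827 and H23 the most distant at 24.5%. These shares were not tested, and pairs that share a line share its arrays. Among the line genes higher in HCC827, all 3 HCC827 arrays lay above all 9 arrays of A549, H23 and H358 in 405 genes (32.7%), and all 3 PC9 arrays lay below all 9 in 409 (33.0%). Both held in 75 genes and neither line lay outside the range in 500. Among the line genes higher in PC9, PC9 lay above the 9 arrays in 419 (40.4%), HCC827 below them in 336 (32.4%), both in 65 and neither in 347. Over all genes tested, a line lay above or below the 9 arrays in 9.88% to 10.7% of the genes, and neither line lay outside in 66.3%.

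**Figure D2:**
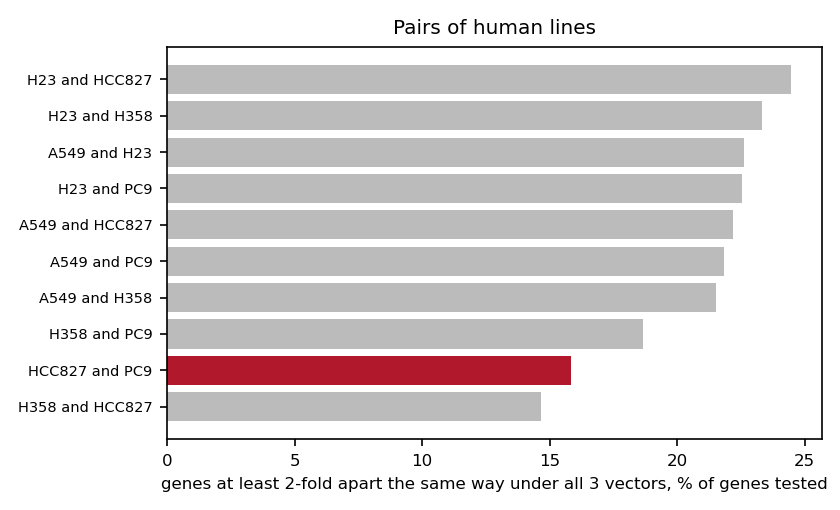
Share of genes tested (percent, horizontal) that were at least 2-fold apart in the same direction under all 3 vectors, for each of the 10 pairs of human lines. The bar of HCC827 and PC9, in red, stands at 15.8%, second from the bottom, between 14.6% for HCC827 and H358 and 18.6% for PC9 and H358.

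EGFR itself was expressed strongly in both lines and was not a line gene. Its signal was 7660, 6421 and 7955 in HCC827 and 12432, 13004 and 16168 in PC9, so every PC9 array lay above every HCC827 array. The log2 difference was -0.91 ± 0.11 (SE, n = 3 arrays per line, adjusted p = 0.00041, limma). Both lines lay above A549, H23 and H358, whose arrays reached 3347 at most. Over its 7 probe sets the difference ranged from -1.06 to 0.12. Of 13 tested genes from a list of neighbours of EGFR on chromosome 7, 1 passed as higher in HCC827 and 4 as higher in PC9, a smaller share (38.5%) than the 54.5% of all genes. The 4 became 1 without the MiG pair and 8 after quantile normalisation. Among the 10 tested genes nearest to EGFR on each side in RefSeq order, C7orf57 was a line gene, 2.06 ± 0.35 (SE) higher in HCC827.

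Of the 15 tested receptors and ligands of the EGFR family, 1 passed as higher in HCC827 and 8 as higher in PC9 (5 without the MiG pair), with a median log2 difference of -0.48. The 60% called was near the 54.5% of all genes. NRG1, the ligand of ERBB3 and ERBB4, was a line gene higher in HCC827: its signal was 845, 1203 and 870 against 43.3, 20.0 and 49.0, 4.24 ± 0.28 on the log2 scale (SE, n = 3 per line). EREG, the EGFR ligand epiregulin, went the other way at 15, 6.96 and 71.9 in HCC827 and 342, 397 and 304 in PC9 (-3.19 ± 0.42 SE). The coreceptor ERBB3 had 751, 865 and 763 in HCC827 and 1531, 1296 and 954 in PC9 (-0.63 ± 0.14 SE, adjusted p = 0.0064, limma), a call not kept in the fit to all 15 human arrays. ERBB2 had 985, 1137 and 763 against 1036, 1066 and 882, and did not pass (adjusted p = 0.63). In EREG and ERBB3 the groups of arrays did not overlap, and in ERBB2 they did.

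Other receptor tyrosine kinases and their ligands had 13 of 33 tested higher in HCC827 and 8 in PC9 (against 26.9% and 27.6% of all genes), with 9 line genes against 1. The median log2 difference was -0.04. Line genes made up 30.3% of the list, against 15.8% of all genes. MET, the HGF receptor and a known bypass of EGFR inhibition, gave 12712, 9634 and 10247 in HCC827 and 5226, 5580 and 5527 in PC9 (0.98 ± 0.12 SE, adjusted p = 0.00038, limma). AXL, another bypass receptor, gave 11773, 12281 and 10628 against 4447, 4096 and 5446 (1.31 ± 0.13 SE), while its other probe set differed by -0.36. Neither reached 2-fold under every vector. KIT, the receptor of stem cell factor, had 511, 656 and 506 in HCC827 and 13.7, 18.9 and 18.1 in PC9, at least 11.6-fold higher in HCC827. The growth factor FGF2 was at least 8.08-fold higher there, with 389, 313 and 449 against 7.66, 4.47 and 5.43. FGFR2, one of the FGF receptors, had 254, 323 and 237 against 37.1, 3.29 and 4.70. Over its 3 probe sets the log2 difference ranged from 0.02 to 3.93. EPHB6, an ephrin receptor without kinase activity, was the line gene higher in PC9, at 1514, 1690 and 1346 against 254, 260 and 183 (-2.64 ± 0.12 SE).

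Genes that read out ERK signalling did not move one way. Of 20 tested, 5 were higher in HCC827 and 10 in PC9, with a median log2 difference of -0.31. The 75% called stood against 54.5% of all genes. The ETS factor ETV1 had 875, 952 and 1011 in HCC827 and 118, 163 and 126 in PC9 (2.68 ± 0.15 SE), and the stress-response gene IER3 17846, 17313 and 17695 against 6137, 6567 and 8274. The oncogene MYC went the other way, with 1148, 964 and 1719 in HCC827 and 8957, 6973 and 8629 in PC9 (-2.70 ± 0.13 SE, adjusted p = 6.4e-06, limma). The feedback inhibitor SPRY1, with 218, 264 and 378 against 983, 996 and 775, and the ephrin receptor EPHA4 were also higher in PC9.

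The 12 genes with the widest differences toward HCC827 were of varied kinds. IGFBP7, a secreted binder of insulin-like growth factors, had 17088, 18068 and 11455 in HCC827 and 1.35, 2.69 and 2.15 in PC9, at least 311-fold apart on this probe set (9.72 ± 0.16 on the log2 scale, SE, adjusted p = 1.4e-07, limma). Over its 3 probe sets the log2 difference ranged from 3.22 to 9.72. On the brightest one, both lines lay outside the other 3 lines, HCC827 above them and PC9 below. BASP1, a membrane-bound signalling protein, gave 16077, 13067 and 15162 against 44.4, 8.25 and 30.8 (8.49 ± 0.19 SE), and here PC9 lay below the other 4 lines. SERPINA1, the antiprotease alpha-1 antitrypsin, had 5944, 3819 and 7988 in HCC827 and 2.23, 0.737 and 3.85 in PC9. It was at least 116-fold apart on this probe set, and between 0.79 and 8.28 on the log2 scale over its 3 probe sets.

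The type IV collagen chain COL4A2 had 5492, 7091 and 3249 in HCC827 against 27.3, 4.58 and 4.74 in PC9, at least 103-fold. DYNLT3, a dynein light chain, had 6562, 6595 and 5355 against 23, 22.7 and 21.3, at least 126-fold. The forkhead factor FOXR2 gave 3185, 2887 and 3099 against 7.35, 5.20 and 10.4, and HCC827 lay above the 9 arrays of the other lines. GALC, the lysosomal galactosylceramidase, gave 1976, 2015 and 1780 against 2.60, 0.766 and 2.12, and PC9 lay below the other 4 lines. The other probe set of GALC differed by 1.26 on the log2 scale. TMEM200A had 2806, 2023 and 3023 against 2.25, 11.7 and 5.70. The DNA sensor IFI16 had 9121, 3014 and 8369 in HCC827 and 11.5, 14.8 and 9.64 in PC9, at least 125-fold apart. IFI27 and BST2 are given with the interferon genes and CD74 with MHC class II.

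Of the 12 genes with the widest differences toward PC9, 6 are described here and the others with the aldo-keto reductases and cancer-testis genes. SPP1, the secreted phosphoprotein osteopontin, had 17.0, 6.56 and 12.2 in HCC827 and 5744, 8969 and 5676 in PC9, at least 141-fold apart. TIMP3, an inhibitor of metalloproteinases bound to the matrix, gave 48.1, 35.2 and 50.7 against 11611, 14819 and 11860 (-7.72 ± 0.15 SE, adjusted p = 2.6e-07, limma), and its 4 probe sets ranged from -8.15 to -6.82. S100P, a calcium-binding protein, had 11.1, 23.7 and 107 in HCC827 and 8791, 8733 and 9501 in PC9.

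SRGN, the core protein of the proteoglycan serglycin, had 9.92, 23.4 and 268 against 9675, 9768 and 11672, with the HCC827 array of the IKKb vector standing above the other two. MAL, a protein of apical membrane traffic, had 69.6, 46.1 and 66.9 against 9175, 9658 and 10368. The elastase inhibitor PI3 (elafin) had 44.6, 32.9 and 52.0 against 8499, 2594 and 12796. For TIMP3, SRGN, MAL and PI3 the PC9 arrays lay above every array of A549, H23 and H358, whereas for SPP1 and S100P they did not.

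Interferon-stimulated genes were higher in HCC827. All 43 tested members of a list of 46 passed the test in that direction and 40 were line genes, with a median log2 difference of 3.88. Of all genes, 26.9% passed as higher in HCC827 and 8.61% were line genes higher there. All 43 also passed without the IkB_SR pair, and 41 without the MiG or the IKKb pair; with a robust prior 38 did. Since RNA came from whole cultures, a larger share of expressing cells and more RNA per cell cannot be told apart. IFI27 had 8016, 176 and 13495 in HCC827 against 2.02, 2.87 and 6.55. IFI44 gave 5693, 1094 and 5576 against 22.7, 4.15 and 28.7, at least 67.0-fold. BST2, the tetherin that holds budding viruses at the cell surface, gave 4013, 1198 and 4061 against 9.52, 7.84 and 10.9, at least 55.3-fold.

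Some further members are named here after their values were seen. The translation inhibitor IFIT1 had 12147, 865 and 13180 in HCC827 and 182, 44.5 and 95.6 in PC9. The antiviral GTPase MX1 had 10225, 431 and 9288 against 63.3, 63.8 and 60.8. The ubiquitin-like ISG15 had 15009, 3927 and 14139 against 407, 364 and 534. IRF9, the DNA-binding partner of the STAT proteins, had 3084, 756 and 2671 against 200, 174 and 141, and the RNA sensor RIGI 4513, 648 and 5832 against 174, 132 and 181. In every one of these genes the HCC827 array with IkB_SR was the lowest of the 3 and still stood above all PC9 arrays.

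The size of the interferon difference moved with the vector, although its direction did not. The list's median log2 difference was 4.09 with MiG, 2.17 with IkB_SR and 4.58 with IKKb. The list's median log2 signal was 11.60, 8.82 and 11.78 in HCC827 and 7.19, 6.64 and 7.06 in PC9, so the narrower gap lay mainly on the HCC827 side. The HCC827 array with IkB_SR was the lowest of the 3 in 43 of 43 genes, and the PC9 array with IkB_SR in 30 of 43. The difference was smallest under IkB_SR in 41 genes and still at least 2-fold there in 40. This rests on 1 array per line and vector and was not tested. The median signal and actin ratio of that HCC827 array, 54.9 and 1.19, lay between those of the other HCC827 arrays. Against the other lines, HCC827 lay above all 9 arrays of A549, H23 and H358 for 7 of the 43 genes and PC9 below them for 8. The same held for 9.88% and 10.5% of all genes tested, and for 32.7% and 33.0% of the line genes higher in HCC827. H358 had list medians of 9.48 to 10.10, while those of A549 and H23 ran from 6.16 to 7.64, a range that holds the 3 PC9 medians.

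The promoters of these genes were searched for the core of the interferon-stimulated response element, the site of the STAT and IRF complex, in the 250 bases before the start. The letters searched were GAAANNGAAA, or TTTCNNTTTC on the other strand. Of the 40 line genes, 32 had a RefSeq promoter, and 19 of these (59.4%) held the core, against 2.26% of the 11545 promoters of genes tested. The genes come from a list of interferon-stimulated genes, so the share describes that list and not the difference between the lines. Of those with a promoter, 19 are described as holding the core. The sequences of 4 of them are shown as examples that carry the core, chosen after the values were seen. They are RefSeq sequence of GRCh38.p14, read 5′ to 3′ on the strand of the gene, with the core in capitals: IFI27 at chr14:94110486-94110735 (plus), IFIT1 at chr10:89392373-89392622 (plus), BST2 at chr19:17405631-17405880 (minus) and IFI44L at chr1:78620198-78620447 (plus).
IFI27: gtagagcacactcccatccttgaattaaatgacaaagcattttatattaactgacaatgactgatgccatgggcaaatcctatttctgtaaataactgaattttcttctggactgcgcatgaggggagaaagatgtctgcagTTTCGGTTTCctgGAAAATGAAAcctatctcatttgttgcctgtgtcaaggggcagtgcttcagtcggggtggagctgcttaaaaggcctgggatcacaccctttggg
IFIT1: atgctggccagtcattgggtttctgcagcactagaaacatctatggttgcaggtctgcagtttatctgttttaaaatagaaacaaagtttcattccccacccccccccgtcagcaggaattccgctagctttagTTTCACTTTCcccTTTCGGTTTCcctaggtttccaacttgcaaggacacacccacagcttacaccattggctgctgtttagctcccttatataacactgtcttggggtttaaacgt
BST2: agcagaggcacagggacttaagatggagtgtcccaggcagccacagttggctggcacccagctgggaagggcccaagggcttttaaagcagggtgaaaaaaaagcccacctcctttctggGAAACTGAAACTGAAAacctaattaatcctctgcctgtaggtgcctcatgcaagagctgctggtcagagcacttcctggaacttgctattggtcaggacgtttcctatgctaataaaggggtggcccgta
IFI44L: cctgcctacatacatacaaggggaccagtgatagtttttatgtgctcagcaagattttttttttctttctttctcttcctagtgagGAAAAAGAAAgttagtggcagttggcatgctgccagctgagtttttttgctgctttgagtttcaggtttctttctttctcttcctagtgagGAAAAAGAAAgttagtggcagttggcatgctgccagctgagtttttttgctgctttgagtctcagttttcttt
Each of the 4 held the core in 2 places, and in BST2 they overlap. The match closest to the start began 95 bases before it in IFI27, 103 in IFIT1, 124 in BST2 and 73 in IFI44L. IFI44L, chosen for its promoter, had signals of 4898, 106 and 6524 in HCC827 and of 2.64, 1.86 and 1.24 in PC9. A match describes these letters and is not evidence that the site is bound.

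**Figure D3:**
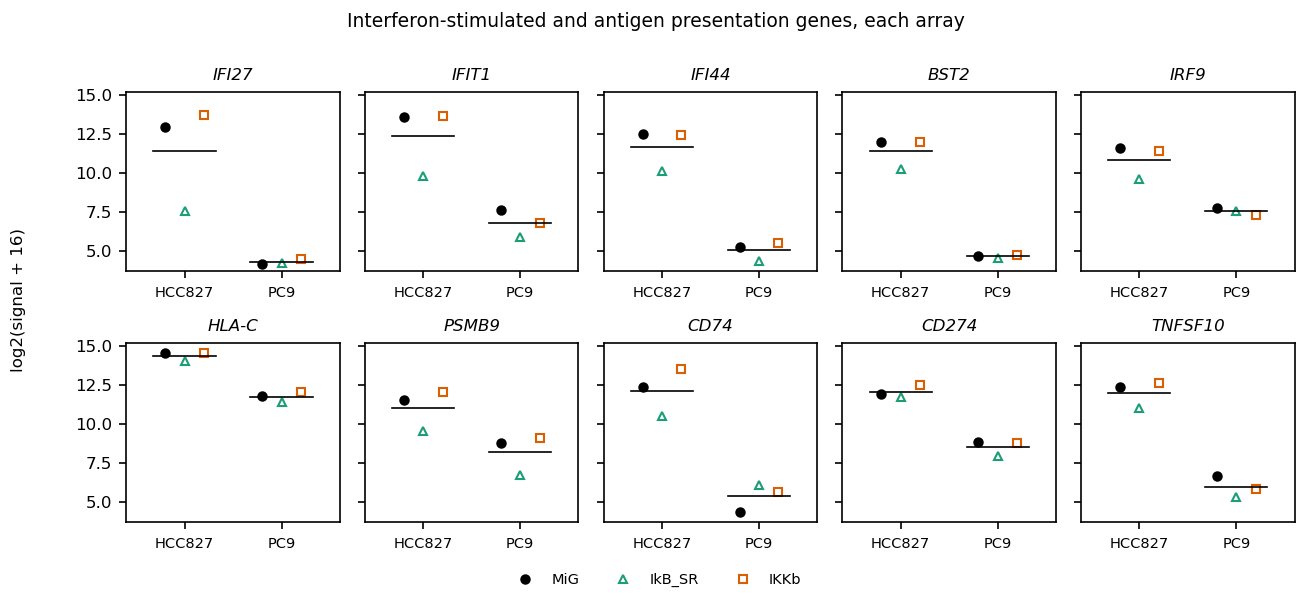
Log2(signal + 16) on each HCC827 and PC9 array for 5 interferon-stimulated and 3 antigen presentation genes, CD274 and TNFSF10, 1 point per array marked by vector, with the mean of 3 arrays as a bar. Every HCC827 array lies above every PC9 array of the same gene, and the HCC827 array with IkB_SR is the lowest of its 3, by the most in IFI27 (176 against 8016 and 13495) and by little in CD274.

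Antigen presentation by MHC class I was also higher in HCC827, for 17 of 20 tested genes against 1 higher in PC9, and 14 of the 17 were line genes. Of the 20, 90% were called and 70% were line genes, against 54.5% and 15.8% of all genes. The list's median log2 difference was nearly the same under the vectors, at 1.49 with MiG, 1.45 with IkB_SR and 1.55 with IKKb. The heavy chain gene HLA-C had 23931, 17188 and 24010 in HCC827 and 3546, 2705 and 4198 in PC9 (2.64 ± 0.10 SE, adjusted p = 2.7e-06, limma). HLA-G gave 9837, 5136 and 13997 against 1261, 811 and 1347, but HLA probe sets can bind related transcripts, so the share of each gene is uncertain. PSMB9, a subunit of the immunoproteasome, had 3025, 736 and 4323 against 431, 90.0 and 533 (2.86 ± 0.10 SE). Its log2 difference was 2.77, 2.83 and 2.98 under the 3 vectors, and both lines had their lowest signal with IkB_SR.

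MHC class II genes differed by an amount that moved with the vector. Of 11 tested, 7 were higher in HCC827, with a median log2 difference of 1.88, 0.24 and 4.32, and the overall median of 2.49 was 1.21 without the IKKb pair. Of the 11, 63.6% were called, against 54.5% of all genes. The 7 called genes became 4 with eBayes without a trend, with a robust prior or with the mean of the probe sets. The invariant chain CD74 had 5283, 1491 and 11692 in HCC827 and 4.53, 52.6 and 34.1 in PC9 (6.78 ± 0.62 SE), while its other probe set differed by 1.33. HLA-DMA, which loads peptides, had 478, 279 and 878 against 83.4, 71.3 and 62.5. The protease CTSS, which trims the invariant chain, had 389, 222 and 1903 against 9.48, 1.89 and 13.1, at least 11.6-fold apart. There were 4 line genes in the list, and 7 without the IkB_SR pair. HLA-DMA and CTSS had their highest HCC827 signal with IKKb, as CD74 did. Leukocytes also express class II genes; of their 14 markers on the array, 2 lay above the percentile on all HCC827 arrays and 2 on all PC9 arrays, 7 and 5 lay below it on all, and their summed signal was 413 to 547 and 464 to 1031.

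Immune checkpoint and surface genes split between the lines, with 16 of 36 higher in HCC827 and 9 in PC9. Of the 36, 69.4% were called and 38.9% were line genes, against 54.5% and 15.8% of all genes. CD274, which encodes PD-L1, had 3879, 3464 and 5740 in HCC827 and 457, 231 and 432 in PC9 (3.51 ± 0.15 SE, adjusted p = 4.3e-06, limma). Its other probe set differed by 1.01. The lectin LGALS9 had 738, 416 and 750 against 89.1, 87.5 and 17.6, and the cytokine receptor IL7R 605, 202 and 989 against 6.23, 3.26 and 7.77, at least 10.5-fold apart. Higher in PC9 were the decoy receptor IL1R2, with 5.21, 3.66 and 26.8 in HCC827 against 873, 708 and 925, the natural killer ligand NCR3LG1 and the checkpoint protein VSIR, with 352, 341 and 266 against 1044, 1467 and 1031.

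Chemokines were higher in HCC827 where they passed, in 7 of 13 tested. The 53.8% called was near the 54.5% of all genes, but all 7 lay toward HCC827, where 26.9% of all genes passed. Without the replicate block, 3 of the 13 passed in that direction. CCL2, which attracts monocytes, had 927, 123 and 11087 in HCC827 and 3.82, 2.37 and 3.73 in PC9, at least 23.1-fold apart. CCL28, a mucosal chemokine, had 445, 491 and 644 against 2.65, 26.3 and 29.6, at least 10.9-fold. CXCL2, which attracts neutrophils, had 306, 161 and 2475 against 100.0, 33.1 and 205. The calls of CXCL2 without the replicate block and of CCL2 with a robust prior were lost. As with class II, the list's median difference was widest with IKKb at 2.14 and narrowest with IkB_SR at 0.16.

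The cytokine IL11, which signals through gp130, had 4629, 5846 and 5254 in HCC827 and 84.2, 115 and 196 in PC9 (5.22 ± 0.18 SE). TNFSF10, the death ligand TRAIL, had 5299, 2113 and 6509 against 84.5, 23.7 and 42.5 (6.09 ± 0.22 SE). BMP2, a bone morphogenetic protein, had 367, 407 and 740 against 5.98, 4.11 and 5.21, at least 10.1-fold apart. IL18, an inflammasome cytokine, was higher in PC9 with 1730, 1343 and 1655 against 281, 370 and 468, and so was the inhibin chain INHBB. In all, 9 of 23 cytokines and growth factors were higher in HCC827 and 5 in PC9, a share of 60.9% called that is near the 54.5% of all genes.

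Feedback targets and components of the NF-kB pathway had 7 of 21 higher in HCC827 and 3 in PC9, against 26.9% and 27.6% of all genes. Their median log2 difference was -0.20, 0.07 and 0.51 under the 3 vectors, so its sign was not the same under all of them. The 47.6% called lay below the 54.5% of all genes. The 7 higher in HCC827 became 3 without the replicate block and 4 with eBayes without a trend, and without the IKKb pair 5 were higher in PC9. NFKBIA itself differed by 1.37 ± 0.26 (SE, adjusted p = 0.0032, limma) and lost its call without the replicate block. Its signal was highest with IkB_SR in both lines, where it may also read the vector's mutant IkB alpha, so that pair is not a plain reading of the cells' own gene. The regulator NFKBIZ had 1871, 1184 and 2683 in HCC827 against 577, 500 and 621 in PC9. MAP3K14, the kinase of the noncanonical pathway, went the other way with 514, 912 and 388 against 1494, 2287 and 1605.

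**Figure D4:**
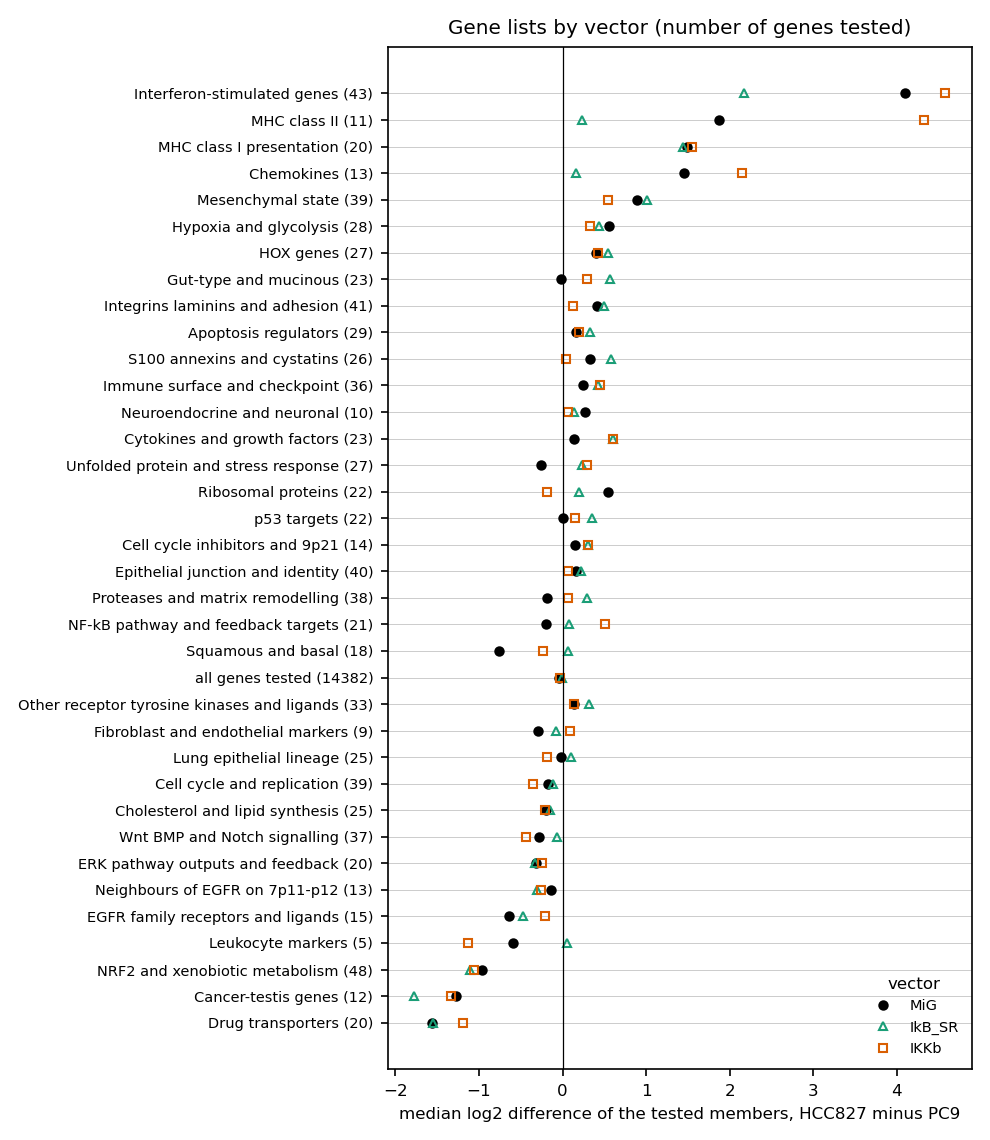
Median log2 difference, HCC827 minus PC9, of the tested members of each gene list under each vector (marker shape and colour), with the number of genes tested in brackets. Interferon-stimulated genes stand farthest to the right, at 2.17 with IkB_SR and above 4 with the other vectors, while drug transporters, cancer-testis genes and the NRF2 list stand to the left of 0 under every vector.

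Genes of the NRF2 programme and of xenobiotic metabolism were higher in PC9. Of 48 tested, 34 passed as higher in PC9 and 8 as higher in HCC827, with 22 and 2 line genes and a median log2 difference of -0.96, -1.11 and -1.06 under the 3 vectors. Of all genes, 27.6% passed as higher in PC9 and 7.21% were line genes higher there. The aldo-keto reductases led: AKR1C2 had 45.1, 16.1 and 87.7 in HCC827 and 7613, 12095 and 6446 in PC9, and AKR1C3 57.7, 103 and 91.5 against 11127, 16691 and 11394 (-7.03 ± 0.12 SE, adjusted p = 1.4e-07, limma). AKR1C1 gave 138, 157 and 141 against 9092, 13970 and 7701. These enzymes are close in sequence and a probe set of one can bind another, so they may not be separate measurements. UCHL1, a deubiquitinase also counted among neuroendocrine genes, had 264, 347 and 404 in HCC827 and 14640, 15933 and 17275 in PC9 (-5.51 ± 0.09 SE). In contrast, GSTT1, a glutathione transferase, was at least 9.07-fold higher in HCC827, with 427, 435 and 424 against 4.79, 7.98 and 6.35, and the dioxin-induced CYP1A1 at least 2.20-fold.

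Further genes are named after their values were seen, for their roles; KEAP1 and NFE2L2 are not on the list. GCLC, the catalytic subunit of the enzyme that limits glutathione synthesis, had 1523, 1470 and 1359 in HCC827 and 5239, 6692 and 5207 in PC9. Its modifier subunit GCLM had 4916, 3976 and 4238 against 12040, 15935 and 15057, and the thioredoxin reductase TXNRD1 6067, 6055 and 6694 against 15950, 17681 and 17702. The cystine carrier SLC7A11 had 519, 688 and 987 against 2596, 3037 and 2845. NQO1, a quinone reductase, differed by -0.95 ± 0.11 (SE) and was no line gene. KEAP1, the inhibitor, was itself higher in PC9, with 1498, 1497 and 1563 against 3288, 3370 and 3471, and NFE2L2, the gene of NRF2, differed by -0.30 ± 0.10 (SE, adjusted p = 0.036, limma). PC9 was not the extreme line of the series for this list. Its median log2 signal was 9.82 to 10.83, against 11.99 to 12.43 in A549, 8.90 to 8.93 in HCC827 and 8.41 to 9.02 in H23 and H358.

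In the 250 bases before the start, the core of the antioxidant response element, TGACNNNGC or GCNNNGTCA on the other strand, was found in 4 of the 17 promoters that RefSeq gave for the 22 line genes higher in PC9 (23.5%), against 12.2% of the promoters of genes tested. These are GCLM, TXNRD1, GPX2 and CYP4F11. As with the interferon list, the share describes the list and not the difference between the lines. The GCLM promoter, at chr1:93909431-93909680 (minus strand, GRCh38.p14), is shown with the core in capitals, which begins 34 bases before the start.
GCLM: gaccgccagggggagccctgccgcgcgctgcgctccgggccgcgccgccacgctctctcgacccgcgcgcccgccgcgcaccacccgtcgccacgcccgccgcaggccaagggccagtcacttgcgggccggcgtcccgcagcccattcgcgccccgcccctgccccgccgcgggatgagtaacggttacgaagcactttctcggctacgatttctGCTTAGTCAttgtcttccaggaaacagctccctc

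The list of drug transporters also counts carriers of other substrates, such as glucose, cholesterol and prostaglandins. It had 14 of 20 tested higher in PC9 and 3 higher in HCC827. Of the 14, 11 were line genes (7 with a pseudocount of 64 and 6 with the mean of the probe sets). This list overlaps the NRF2 list, which also counts ABCC2. Of the 20, 85% were called, against 54.5% of all genes. The list's median log2 signal was 9.45 to 9.69 in PC9, 9.41 to 9.76 in A549 and 7.32 to 7.65 in HCC827, so PC9 did not stand apart from A549. SLC2A3, a glucose transporter counted here and under hypoxia, had 20.0, 11 and 19.3 in HCC827 and 1308, 809 and 1145 in PC9, at least 23-fold apart. ABCC2, an exporter of conjugates, had 4.71, 20.0 and 34.5 against 890, 813 and 716. The cholesterol exporter ABCA1 had 83.6, 95.3 and 127 against 2799, 1880 and 3618 (-4.53 ± 0.16 SE). The prostaglandin transporter SLCO2A1 was the line gene higher in HCC827, with 2429, 1365 and 1196 against 49.6, 41.2 and 18.7. Since the filter keeps a gene that is dim in one line if it is bright in the other, the share of line genes in lists with many dim members is not a share of all their members.

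Cancer-testis genes are normally silent outside the germ line. On the array, 25 of the 44 listed had a probe set of their own, 12 passed the filter, and 6 of these were line genes higher in PC9 and 1 in HCC827. That is 58.3% of the 12, against 15.8% of all genes. The share is raised by the filter, which a gene silent in one line passes if it is bright in the other. Without the filter, 7 of the 25 were line genes higher in PC9 and 1 in HCC827, against 2312 line genes of 19738 in all. MAGEA6 had 13.3, 49.2 and 63.5 in HCC827 and 18230, 21548 and 23398 in PC9 (-8.62 ± 0.20 SE, adjusted p = 4.3e-07, limma). MAGEA4 had 5.86, 1.12 and 25.1 against 5193, 5651 and 5796, at least 118-fold apart, and MAGEA12 54.8, 40.2 and 94.8 against 12011, 14171 and 15609. VCX2, a germ line gene outside the list, had 6.58, 10.2 and 10.3 against 4673, 5913 and 6091, at least 118-fold. Members of the MAGEA and VCX families are near copies, so these probe sets may report related transcripts. PRAME was the member higher in HCC827, at least 4.21-fold, with 180, 238 and 160 against 10.9, 11.9 and 11. HCC827 was below all 9 arrays of A549, H23 and H358 for MAGEA6, and PC9 above them, whereas for MAGEA4 neither line lay outside the range.

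Mesenchymal genes were higher in HCC827 for 20 of 39 tested and in PC9 for 5, with 15 and 2 line genes, while the epithelial genes differed little. Line genes made up 43.6% of the mesenchymal list, against 15.8% of all genes. CDH11, a mesenchymal cadherin, had 2505, 1670 and 2812 in HCC827 and 1.82, 12.8 and 8.54 in PC9, at least 46.7-fold apart. Over its 4 probe sets the log2 difference ranged from 1.08 to 6.62. SPARC, a matrix glycoprotein, had 1890, 1995 and 1483 against 3.47, 5.16 and 6.81, at least 36.5-fold, and the BMP antagonist GREM1 1099, 1110 and 2041 against 2.19, 4.28 and 13.5, at least 28.0-fold. N-cadherin, CDH2, had 1901, 2254 and 1671 against 62.1, 36.7 and 54.4 (4.88 ± 0.20 SE). The intermediate filament VIM had 5252, 5061 and 3418 against 1381, 975 and 2006 (1.68 ± 0.26 SE), not 2-fold with IKKb. The collagen VI chains went the other way: COL6A1 had 179, 102 and 299 in HCC827 and 7666, 1891 and 8612 in PC9, and COL6A2 13.8, 7.35 and 96.5 against 2204, 310 and 2372. Over the 7 probe sets of COL6A1 the log2 difference ranged from -4.69 to -0.03. In both lines these 2 chains were lowest with IkB_SR. Of 11 fibroblast and endothelial markers on the array, 5 lay above the percentile on all HCC827 arrays and 4 on all PC9 arrays, with a summed signal of 1277 to 1381 and 1100 to 1326. COL3A1, PDGFRB and FAP were below it on all arrays of both lines.

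E-cadherin, CDH1, was bright in both lines, with 14196, 14697 and 12444 in HCC827 and 9011, 8294 and 10622 in PC9. Its difference of 0.57 ± 0.14 (SE, adjusted p = 0.010, limma) was not kept without the IkB_SR pair or in the fit to all 15 arrays. Of 40 epithelial genes, 17 were higher in HCC827 and 7 in PC9, but only 4 were line genes. With eBayes without a trend or in the fit to all 15 arrays the counts were 11 and 4, and without the IkB_SR pair 11 were higher in HCC827. Without the MiG pair 4 were higher in PC9. As reported, 60% of the list were called and 10% were line genes, against 54.5% and 15.8% of all genes. The line genes were the channel-activating protease PRSS8, with 1368, 1426 and 1416 against 294, 238 and 261, and the protease inhibitor SPINT1, on 1 of its 2 probe sets, in HCC827. In PC9 they were the desmosomal PKP2, with 1268, 1508 and 1265 in HCC827 against 4278, 4175 and 4659, and the factor GRHL1.

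Squamous and basal genes that were line genes were mostly higher in PC9, 7 against 2 of 18 tested. Line genes made up 50% of the list, against 15.8% of all genes. The keratin KRT13 had 10.9, 17.5 and 16.7 in HCC827 and 1378, 1909 and 724 in PC9, at least 26.7-fold apart, and the basal marker LY6D 40.1, 5.53 and 26.5 against 758, 1043 and 585. KRT15 had 27.8, 43.1 and 74.4 against 721, 1644 and 417. S100A2 went the other way, with 14538, 14654 and 8935 in HCC827 and 682, 526 and 654 in PC9 (4.29 ± 0.17 SE). The calprotectin chains S100A8 and S100A9 were higher in PC9; S100A9 had 255, 40.8 and 1063 against 3621, 1857 and 3720.

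Among genes of the lung and of gut-type epithelium, the membrane mucin MUC1 had 11793, 5618 and 9607 in HCC827 and 147, 47.4 and 99.3 in PC9 (6.34 ± 0.10 SE, adjusted p = 1.4e-07, limma), and HCC827 lay above and PC9 below the other 3 lines. SFTA2, a surfactant-associated gene, had 797, 1045 and 631 against 8.79, 2.46 and 5.35, at least 16.8-fold apart. The secretory-cell factor SPDEF had 1605, 1409 and 1674 against 106, 193 and 80.4. Higher in PC9 were CEBPA, with 92.4, 142 and 64.5 in HCC827 against 407, 596 and 295, and CEACAM6, with 583, 1232 and 804 against 7176, 6196 and 4250. Counted over the lists, 5 of 25 lung genes and 7 of 23 gut-type genes were line genes in HCC827, and 3 and 3 in PC9. These shares were 32% and 43.5%, against 15.8% of all genes.

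**Figure D5:**
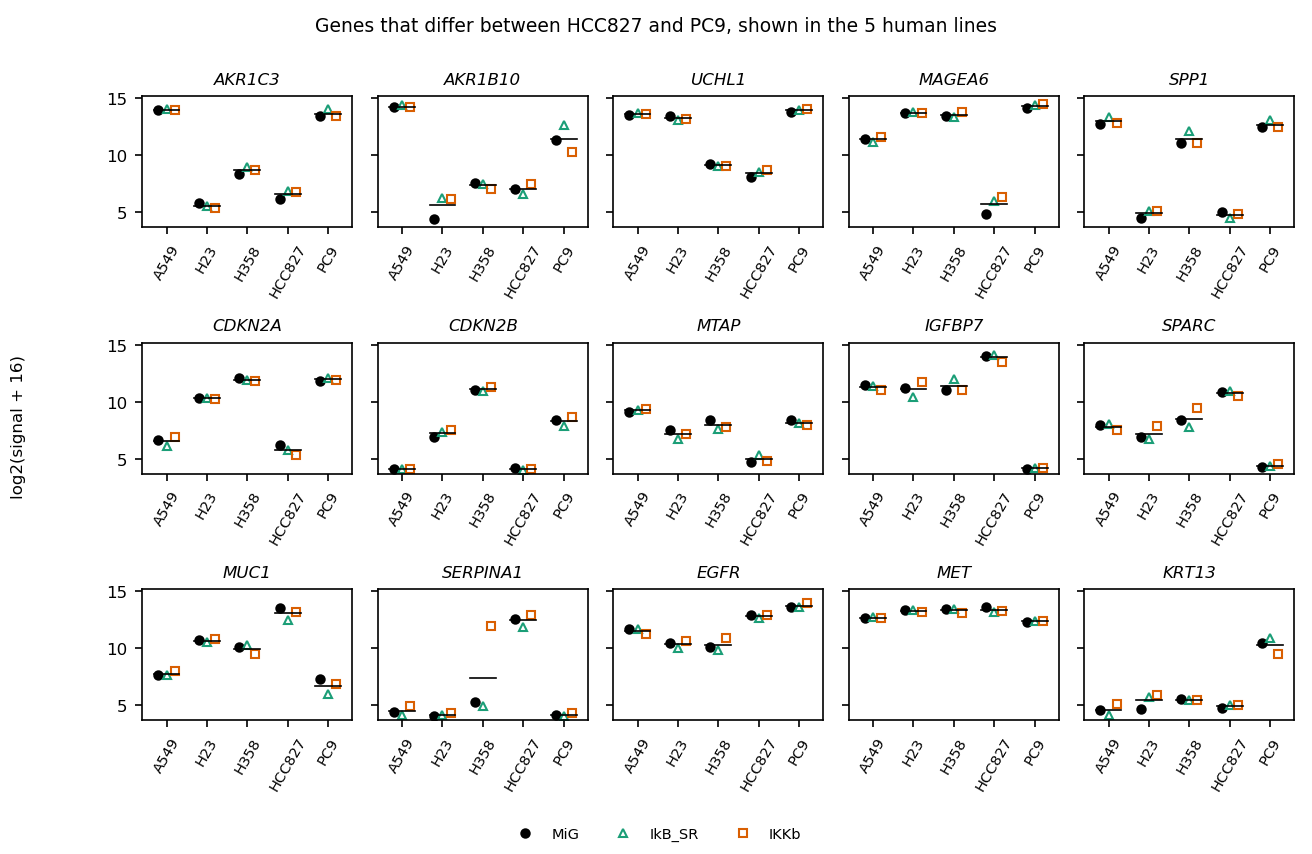
Log2(signal + 16) of 15 genes on the 15 human arrays, grouped by line (horizontal), 1 point per array marked by vector, with the mean of a line's 3 arrays as a bar. CDKN2A is low in HCC827 and A549, KRT13 is high in PC9 alone of the 5 lines, and EGFR is highest in PC9 and HCC827.

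The cell cycle inhibitors of chromosome band 9p21, on arm 9p, were low in HCC827. CDKN2A, the gene of p16 and ARF, had 58.6, 37.5 and 25.3 in HCC827 and 3646, 4362 and 3976 in PC9 (-6.19 ± 0.20 SE, adjusted p = 1.8e-06, limma). Its neighbour CDKN2B, the gene of p15, had 1.88, 0.486 and 0.903 against 328, 214 and 383, at least 6.71-fold. MTAP, a methionine salvage enzyme beside them, had 10.1, 24.0 and 12 against 321, 273 and 230, at least 6.12-fold. FOCAD and MLLT3, farther out on the same arm, were higher in HCC827, with 1865, 1990 and 1886 against 569, 447 and 491 for FOCAD and 382, 498 and 499 against 135, 126 and 101 for MLLT3. For CDKN2A the A549 arrays, at 53 to 106, were as low as HCC827, but for MTAP they were not, at 543 to 658. Copy number was not measured.

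Of 39 cell cycle and replication genes, 6 were higher in HCC827 and 18 in PC9, and the factor FOXM1 was the only line gene, with 1805, 1578 and 1679 against 4225, 4203 and 4421. The called share was 61.5% and the line gene share 2.56%, against 54.5% and 15.8% of all genes. CDKN1A, the gene of p21, was higher in HCC827, with 2570, 2886 and 2613 against 899.9, 356 and 1208. The p53 target PMAIP1 (NOXA) was too, with 6206, 4871 and 6718 against 1401, 1057 and 1442 (2.18 ± 0.08 SE). BAX, a p53 target and apoptosis regulator, went the other way with 437, 444 and 417 in HCC827 and 1536, 1494 and 1461 in PC9 (-1.75 ± 0.10 SE). So did BCL2, with 36.4, 13.4 and 26.4 against 252, 307 and 248 on its brightest probe set, while its other probe set differed by -0.10. Apoptosis regulators as a list were even in direction, at 12 and 10 of 29 with 3 line genes each way (5 and 6 without the IkB_SR pair). Of the 29, 75.9% were called and 20.7% were line genes. The p53 target list had 9 of 22 tested higher in HCC827 and 6 in PC9, with 4 and 1 line genes. Those called made up 68.2% and the line genes 22.7%, against 54.5% and 15.8% of all genes.

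Proteases and matrix regulators split evenly in direction, with 9 line genes in HCC827 and 8 in PC9 of 38 tested (5 in PC9 with the mean of the probe sets). Line genes made up 44.7% of them, against 15.8% of all genes. ADAMTS1, a matrix protease, had 843, 981 and 939 in HCC827 and 5.32, 2.32 and 1.91 in PC9, at least 19.1-fold apart. The urokinase PLAU had 14921, 13525 and 20546 against 3013, 2215 and 3083 (2.54 ± 0.11 SE). MMP2, a gelatinase, had 1961, 2104 and 768 against 71.0, 103 and 94.3 on its brightest probe set, while its other probe set differed by -0.80. The kallikreins KLK7 and KLK8 were higher in PC9, KLK8 with 108, 102 and 71.9 in HCC827 against 1192, 1560 and 1107. Of adhesion genes, the laminin chain LAMA4 had 82.9, 105 and 94.5 against 1860, 2170 and 1602, and the integrin ITGA6 4574, 4260 and 3811 against 14264, 13614 and 15777, both higher in PC9.

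Developmental genes differed in both directions. Of 27 HOX and related genes tested, 8 were line genes in HCC827 and 2 in PC9, a share of 37.0% against 15.8% of all genes. HOXD10 had 1020, 1029 and 1194 in HCC827 and 8.67, 50.1 and 4.41 in PC9 (5.09 ± 0.35 SE), and HOXA2 7.70, 1.21 and 31.5 against 305, 291 and 211. In the Wnt, BMP and Notch list, 6 and 8 of 37 were line genes, a share of 37.8%. LEF1, the DNA-binding factor of the Wnt pathway, had 6.73, 2.69 and 13.6 in HCC827 and 728, 690 and 601 in PC9, at least 14.6-fold apart, and the Wnt binder SFRP1 186, 321 and 162 against 4114, 6106 and 3839 (-4.32 ± 0.10 SE). ID2, an inhibitor of differentiation factors, was higher in HCC827 with 1284, 1481 and 1147 against 57.1, 47.6 and 39.1.

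Among stress and metabolic genes, the lipid droplet protein PLIN2 had 1408, 1450 and 1723 in HCC827 and 30.6, 11.7 and 52.3 in PC9, although its other probe set differed by -0.58. FABP5, a fatty acid carrier, had 1795, 1874 and 2466 against 12512, 13144 and 14771 (-2.72 ± 0.09 SE). The mitophagy receptor BNIP3 had 4885, 4659 and 4444 against 827, 795 and 681 (2.58 ± 0.08 SE). ATF5 was the only line gene of 27 in the unfolded protein and stress list, higher in PC9, whereas 15.8% of all genes were line genes. Of the 27, 10 passed the test as higher in HCC827 and 7 as higher in PC9, against 26.9% and 27.6% of all genes. The annexin ANXA1, which binds phospholipid, had 16835, 17972 and 13558 in HCC827 and 1372, 998 and 1807 in PC9 (3.55 ± 0.21 SE).

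Some line genes lay side by side in the RefSeq order of genes tested. There were 19 runs of at least 4 neighbours higher in HCC827 and 7 higher in PC9, named here after their values were seen. Line genes made up 8.61% and 7.21% of all genes tested. How many runs such shares would give in an arbitrary gene order was not computed. The longest run held 10 protocadherin genes, from PCDHAC2 to PCDHB15. Next came a run of 8 from ARMCX4 to ARMCX5 and another of 8 from PCSK1N to TFE3, both on chromosome X. Shorter runs on X held 6 genes from DYNLT3 to BCOR, 5 from BEX1 to BEX2 and 4 from APOOL to KLHL4. All of these were higher in HCC827. Others held 6 metallothioneins, from MT2A to MT1X, 5 genes from TAP2 to PSMB9, the IFITM genes and a run of 4 with CD274 and PDCD1LG2, the genes of both PD-1 ligands. The metal-binding MT1E had 16935, 16040 and 12995 in HCC827 and 364, 293 and 305 in PC9 (5.51 ± 0.10 SE), though metallothioneins are near copies. In PC9 the longest run held 6 genes, from RASSF8 to FGFR1OP2, and another of 4 held MAGEA4, GABRA3, MAGEA12 and MAGEA6. PDCD1LG2 had 191, 68.6 and 292 in HCC827 and 6.40, 2.08 and 55.0 in PC9.

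Promoters of line genes that were below the percentile in one line held fewer CpG pairs than those of all genes tested, which was not tested. The median count in the 250 bases before the start was 18 for line genes higher in HCC827, 21 for those higher in PC9 and 20 for all genes tested. It was 15 for genes that were above the percentile in HCC827 and below it in PC9, and 14 for the reverse. At least 10 CpG pairs were found in 65.2% and 59.0% of those promoters, against 79.7% of all tested. These are descriptions of RefSeq sequence, and DNA methylation was not measured.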

How the data were processed

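The deposited values are the authors' linear probe set intensity, computed with GCOS 1.4 and MAS5 per the submitters' processing notes; the trimmed mean of every array was checked to be 500. MAS5 signals near background are noisy. Of 54675 probe sets, 41097 name 1 gene, 1801 several and 11777 none. The brightest single-gene probe set over the 15 human arrays stood for each of 19738 genes. Signals and folds are those of that probe set and can be smaller on another. Of 1157 line genes with several probe sets past the filter, all probe sets went the same way in 1030 (89.0%). Values were log2(signal + 16), and a gene was tested if above the array's 40th percentile on at least 3 of the 6 arrays. limma 3.58.1 in R 4.3.3 (lmFit, eBayes with an intensity trend, two-sided) fitted line and vector, with Benjamini-Hochberg adjustment over 14382 genes; it was tested on simulated data. A fold change is on the log2(signal + 16) scale, which understates the change of dim genes. An exact permutation test of 3 against 3 arrays cannot pass 0.05. Arrays with the same vector form a pair in the labels. The labels' words set the groups.

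The members and the gene lists were chosen with earlier results of these data known. Genes were named by rule: per direction the 12 line genes with the largest difference whose higher line was above the percentile on all its arrays, up to 3 line genes per direction from each list, a fixed set around EGFR and NF-kB, and the 5 widest spans each way among genes that turned direction between vectors. Sex-linked marker genes were left out of all tables. Sequences and gene order are from RefSeq (GRCh38.p14); the array files name no build.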

Additional observations from a re-analysis of the deposited data

How the results depend on the processing

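The counts of genes past the threshold and of line genes stayed within 1.5 times their values under the 14 alternatives run. Genes past the threshold numbered 6281 to 8136 (7836 as reported) and line genes 1767 to 2705 (2276). Without the replicate block that pairs arrays by vector, 7769 genes passed and 2272 were line genes. Leaving out 1 pair of arrays gave 6281 to 7427 genes past the threshold and 2548 to 2705 line genes. With the mean over a gene's probe sets, 7002 passed and 1767 were line genes, of which 1639 were also line genes as reported. The share of line genes higher in HCC827 was 54.4%, and 50.4% after median centring. No direction of a called gene among the 167 named was reversed; at most 4 of those still tested lost their call under any one setting. The filter at the 60th percentile kept 153 of the 167 in the test, and 7 called genes (CD8A, CDH5, CEACAM1, CYP1A1, CYP4B1, LUM and SPATA18) were among the 14 it left out. The precision is limited by 3 arrays per line, by signals near background and by 1 culture per line and vector.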
